A study of Mus musculus with 6 samples.

Results

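The Hedgehog pathway was examined through 10 genes, namely the ligands Shh, Dhh and Ihh, the receptor gene Ptch1, the signal transducer gene Smo, the inhibitors Hhip and Sufu, and the transcription factor genes Gli1, Gli2 and Gli3. They were taken by symbol from the array's platform annotation, which gave 1 probe for each gene, 10 of the 20289 probes. RNA came from urogenital ridges of Mf1 mouse embryos at E11.5 with 11 to 12 tail somites, the stage just before the gonads of the sexes diverge. Knockout ridges (KO) were from embryos homozygous for a deletion of Wt1, the Wilms tumour transcription factor gene, and wild-type ridges (WT) from embryos that carry the gene intact. The deletion is present in every cell, so the arrays do not tell an effect within the ridge from one that reached it from other tissues. Each genotype was measured on 3 single-colour arrays, each labelled as holding ridges of 5 embryos (4 female, 1 male). Nothing in the labels says whether a genotype's 3 arrays come from different pools or repeat 1 pool, so the p-values measure only array-to-array spread, which may be technical.

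Hedgehog ligands are secreted proteins that bind the receptor PTCH1 and thereby release the membrane protein SMO from inhibition. Active SMO acts through the primary cilium and frees the GLI proteins from SUFU, after which GLI1 and GLI2 mainly activate and GLI3 in its processed form represses target genes. Ptch1, Gli1 and Hhip are themselves targets, so their RNA is widely read as a measure of pathway activity. In the mouse embryo SHH comes from the notochord, the floor plate and the gut endoderm, IHH from gut endoderm and forming cartilage, and DHH from Schwann cell precursors, endothelium and, once the testis forms, Sertoli cells, where it directs the fetal Leydig cells.

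Values are the deposited spot intensities, a linear scale whose median was close to 0.96 on every array. They carry no detection flags, and a probe was tested only if the mean of its log2 values from all 6 arrays exceeded that of an intensity of 0.217, the 25th percentile of all probes and called the limit here. Means ± SD in the text are of the intensities themselves. The tests are limma's moderated test with Benjamini-Hochberg adjustment over all 15062 tested probes, passed at an adjusted p under 0.05, and every log2 change is KO minus WT. The median log2 change of all tested probes was 0.09. The brighter Wt1 probe averaged 14.7 ± 0.788 in KO and 42.3 ± 2.77 in WT (SD, n = 3 each) and was thus lower in the group labelled as lacking the gene, though the position of the probe relative to the deletion is not given in the sources used here. Gata3, a gene of the nephric duct, and Emx2, a homeobox gene of the urogenital epithelium, were both measured above the limit on all 6 arrays, Gata3 1.73-fold higher and Emx2 1.54-fold lower in KO (limma, adjusted p = 1.43e-05 and 0.000116). KO array 1 correlated with KO arrays 2 and 3 at r = 0.983 for each, and KO arrays 2 and 3 with each other at 0.986 (across probes, which are not independent replicates). Counts without KO array 1 stand beside the main gene lists.

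Of the 10 Hedgehog genes 7 were tested, and 2 passed, with Gli2 higher and Smo lower in KO. That is 28.6% of the tested members, against 41.3% of all tested probes called in either direction (24.1% higher and 17.2% lower). This share does not exceed that of an average probe, and both changes were small. The median log2 change of the 7 tested members was 0.15. The promoter windows of these 2 genes, from RefSeq (build GRCm38.p6, 250 bases before to 50 after the start of transcription, 5′ to 3′ on the gene's strand), are shown because they are the members whose RNA level passed the test. Capitals mark the letters of the motifs that were found.
Gli2 promoter, chr1:119053570-119053869, minus strand: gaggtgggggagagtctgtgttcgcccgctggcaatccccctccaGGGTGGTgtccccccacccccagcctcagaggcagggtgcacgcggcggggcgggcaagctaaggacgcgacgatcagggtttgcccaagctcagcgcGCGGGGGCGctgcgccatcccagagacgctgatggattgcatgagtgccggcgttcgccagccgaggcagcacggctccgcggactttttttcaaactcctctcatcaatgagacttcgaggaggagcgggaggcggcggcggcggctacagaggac
Smo promoter, chr6:29735247-29735546, plus strand: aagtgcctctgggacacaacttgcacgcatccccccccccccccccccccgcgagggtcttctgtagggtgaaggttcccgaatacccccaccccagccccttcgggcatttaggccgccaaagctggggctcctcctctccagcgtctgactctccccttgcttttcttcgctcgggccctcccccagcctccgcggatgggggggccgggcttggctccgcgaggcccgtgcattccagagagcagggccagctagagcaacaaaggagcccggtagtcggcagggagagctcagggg
The windows were searched on both strands for the Gli site GACCACCCA and for its core ACCACCC, which lies within that site. They were also searched for GCGTGGG, a core shared by WT1 and EGR sites, and for GCGGGGGCG, a GC-rich site of that shared type. The Gli2 window holds the core in the reverse direction, as GGGTGGT at bases 46 to 52, and GCGGGGGCG at bases 144 to 152, while the Smo window holds none of the 4. Among all 32851 promoter windows, 0.253% hold GACCACCCA, 4.61% ACCACCC, 5.04% GCGTGGG and 2.91% GCGGGGGCG. Of the 8 members with a window in the table, Gli2 alone held the Gli core, Gli2 and Hhip held GCGGGGGCG, and no window held GACCACCCA or GCGTGGG. These matches are letters in a window, and no binding was measured.

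The ligand genes gave faint signals. Shh had intensities of 0.0992, 0.126 and 0.206 in KO and of 0.150, 0.0466 and 0.106 in WT. The genotypes overlapped, and Shh was not tested because all 6 values lay below the limit. Ihh, with 0.292, 0.0762 and 0.108 in KO and 0.146, 0.204 and 0.150 in WT, exceeded the limit on KO array 1 only and was not tested either. A faint spot on this array does not show that the RNA was absent.

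Dhh exceeded the limit on 5 of 6 arrays. It gave 0.294, 0.286 and 0.203 in KO and 0.433, 0.433 and 0.411 in WT. Every KO value was below every WT value, as at 21.4% of all tested probes. Counting both directions, KO and WT arrays were fully separate at 52.8% of probes. The means were 0.261 ± 0.0506 in KO and 0.426 ± 0.0128 in WT (SD, n = 3 each), a log2 change of -0.73 with a 95% interval of -1.37 to -0.08, and the adjusted p of 0.0669 in limma missed the threshold. Dhh passed as lower under quantile normalization (limma, adjusted p = 0.0365), under cyclic loess normalization (0.0287) and without an intensity trend in the variance prior (0.0160), the last of these the lowest over the alternatives and 0.177 the highest. Of the cell types known for Dhh, the endothelial list had 4 of 8 tested genes lower and 1 higher in KO, and the list of Schwann cell precursors and neural crest had 3 of 4 higher and none lower, beside 24.1% higher and 17.2% lower over all probes. Of those 3, Sox10 kept its call in all 15 alternatives, while Ednrb lost it in 6, among them without KO array 1, and Foxd3 in 4. Their part in the Dhh values was not tested.

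**Figure D1:**
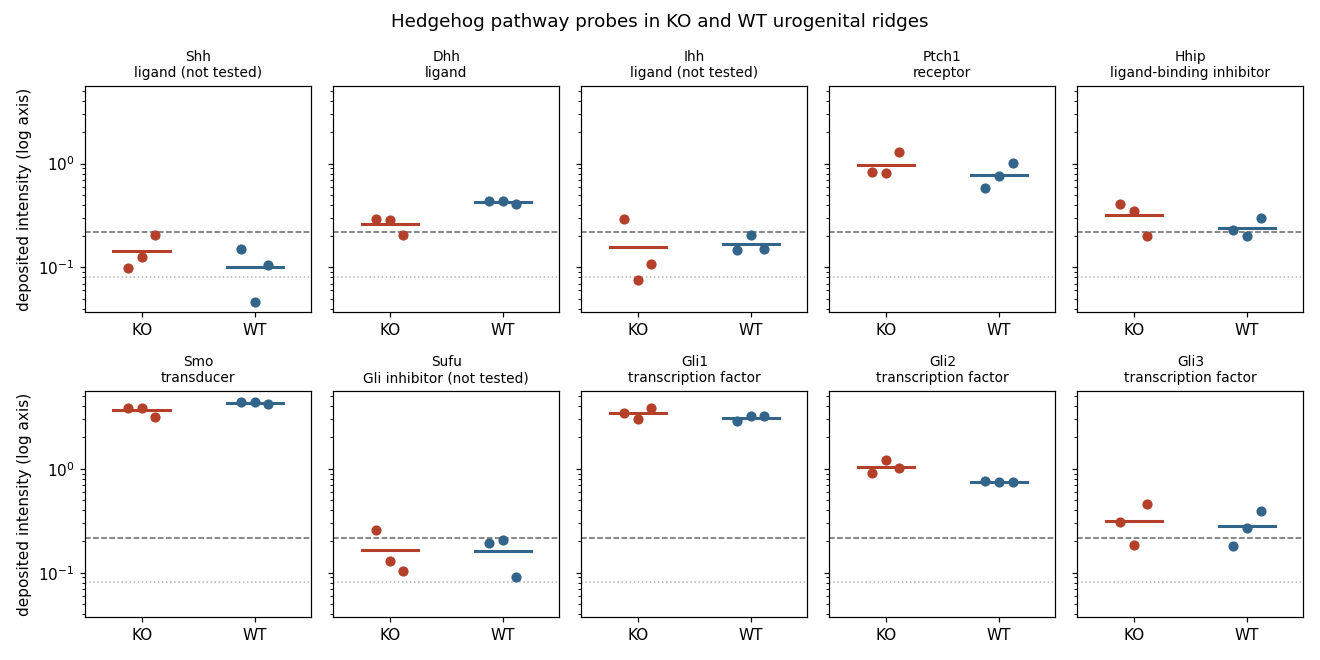
Deposited intensity (log axis) of the 10 Hedgehog pathway probes on the 3 KO and 3 WT arrays, with 1 point per array and a bar at the mean of each genotype. The dashed line is the limit for testing at 0.217 and the dotted line the floor at 0.0811. Of the 7 tested members only Dhh, Smo and Gli2 have no overlap between KO and WT, beside 52.8% of all tested probes.

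Ptch1, which encodes the receptor that holds SMO inactive, gave 0.821, 0.810 and 1.29 in KO and 0.581, 0.762 and 1.01 in WT. The third array of each genotype was the highest and the ranges overlapped. The log2 change was 0.32 with a 95% interval of -0.18 to 0.81 (limma, adjusted p = 0.284). Hhip, whose product binds Hedgehog ligands at the cell surface and limits their reach, gave 0.405, 0.352 and 0.202 in KO and 0.229, 0.199 and 0.298 in WT. Values of both genotypes lay on either side of the limit, and the log2 change of 0.36 had an interval of -0.50 to 1.22 (adjusted p = 0.489). With 3 arrays per genotype, changes of either gene anywhere within its interval remain compatible with the values.

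Smo fell slightly in the knockout. Its intensities were 3.89, 3.86 and 3.18 in KO and 4.40, 4.42 and 4.16 in WT. All KO values lay below all WT values, as at 21.4% of all tested probes, and KO array 3 was lowest. The means were 3.64 ± 0.399 in KO and 4.33 ± 0.146 in WT (SD, n = 3 each), 1.19-fold lower in KO, with a log2 change of -0.26 and a 95% interval of -0.46 to -0.05 (limma, adjusted p = 0.0461). The call ended without KO array 3 (log2 change -0.16, adjusted p = 0.190, the highest over the alternatives) and when any 1 WT array was left out. It also ended under quantile normalization (adjusted p = 0.0763) and cyclic loess normalization (0.0537), and the lowest adjusted p was 0.00795, without KO array 1. Sufu, the cytoplasmic inhibitor of the GLI proteins, gave 0.259, 0.131 and 0.103 in KO and 0.192, 0.206 and 0.0899 in WT. It lay above the limit on KO array 1 only, the genotypes overlapped, and it was not tested.

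Gli2, the main activator of the first response to Hedgehog in mouse embryos, rose in the knockout. It gave 0.919, 1.22 and 1.01 in KO and 0.769, 0.744 and 0.744 in WT. The WT arrays lay close together and every KO array was above them, as at 31.4% of all tested probes. The means were 1.05 ± 0.153 in KO and 0.752 ± 0.0147 in WT (SD, n = 3 each), 1.38-fold higher in KO, with a log2 change of 0.47 and a 95% interval of 0.16 to 0.78 (limma, adjusted p = 0.0197). The call ended without KO array 2, the highest (log2 change 0.36, adjusted p = 0.0702), and when any 1 WT array was left out, where the log2 change was 0.46 to 0.48 and the adjusted p 0.0502 to 0.0626. Over all alternatives that tested Gli2 the adjusted p was 0.00531, without KO array 1, to 0.0702.

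Gli1, a transcription factor whose gene depends on Hedgehog input for its expression, was above the limit on every array. It gave 3.47, 3.005 and 3.81 in KO and 2.89, 3.22 and 3.20 in WT. KO arrays 1 and 3 were the highest and KO array 2 lay among the WT values. The means were 3.43 ± 0.405 in KO and 3.10 ± 0.183 in WT (SD, n = 3 each), a log2 change of 0.14 with an interval of -0.08 to 0.36 (limma, adjusted p = 0.289). Gli3, which in its processed form is the main repressor, gave 0.308, 0.186 and 0.458 in KO and 0.179, 0.271 and 0.392 in WT. The values scattered around the limit in both genotypes, the log2 change of 0.15 had an interval of -0.79 to 1.10 (adjusted p = 0.801), and its sign turned under both alternative normalizations. Whether Gli1, Gli2 and Gli3 changed unequally was not tested.

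**Figure D2:**
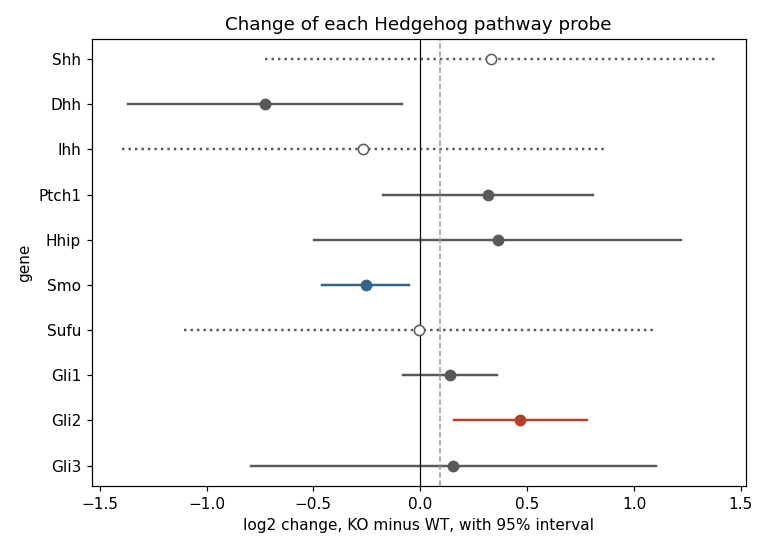
Log2 change (KO minus WT) of each Hedgehog pathway probe with its 95% interval from limma. Red is higher and blue lower at an adjusted p under 0.05, grey did not pass, and open points with dotted lines (Shh, Ihh, Sufu) are values from the fit without a filter on dim probes; the dashed line is the median of all tested probes at 0.09. Gli2 at 0.47 and Smo at -0.26 are the 2 members that passed.

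Among 11867 named probes measured on all 6 arrays, those closest to the 3 target genes of the pathway in their pattern were sought. Likeness was the root mean square difference between log2 values after each probe was centred on its own mean. For Ptch1 these were Senp7, which encodes a SUMO protease, Lhx4, a LIM homeobox gene, and Tfdp1, a partner of E2F factors, with differences of 0.0527, 0.0982 and 0.121. For Gli1 they were Prelid3a, Gm15728 and Dnase2b, with 0.0304, 0.0403 and 0.0486. For Hhip they were Prl3c1, Espn and Mmp17, with 0.111, 0.131 and 0.133. No Hedgehog gene was among these 9 probes. None of the 9 passed the test between genotypes, which their choice made likely, since none of the 3 target genes passed. With 6 values per probe and 11867 probes compared, near patterns can arise by chance.

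Outside the 10 members, 43 of 55 listed genes of the pathway were on the array and 40 were tested, of which 9 rose, 12 fell and 19 did not pass. That is 52.5%, beside 41.3% of all probes, with a median log2 change of -0.13 beside 0.09. List genes were read on their brightest probe, and brighter probes passed more often. Among probes above the median probe, 18 of 33 of these pathway genes passed, beside 5536 of 10035 probes, which are similar shares. The lists were chosen with earlier results of these data known. Quantile normalization gave 6 higher and 14 lower, cyclic loess 6 and 13, and leaving out KO array 1 gave 10 and 15. Of the 7 co-receptors and ligand-binding proteins, 1 rose and 2 fell, beside 24.1% higher and 17.2% lower over all probes. Scube2, whose product helps release lipid-modified ligands from the cells that make them, gave 0.917, 1.05 and 0.883 in KO and 0.472, 0.434 and 0.372 in WT. It was 2.23-fold higher in KO with no overlap (limma, adjusted p = 0.000250). Gpc3, a glypican that competes with PTCH1 for ligand, gave 9.04, 5.28 and 6.32 in KO, against a mean of 11.8 ± 0.501 in WT (SD, n = 3), and its log2 change was -0.81, or -1.03 without KO array 1. Gas1, a co-receptor that promotes the response, averaged 17.1 ± 1.36 in KO and 21.8 ± 1.08 in WT (SD, n = 3 each) and fell by 0.35 on the log2 scale (limma, adjusted p = 0.00451). None of the 5 genes of ligand processing and release passed in limma, and 1 had an unadjusted p under 0.05. Ext1 and Ext2, which build the heparan sulfate along which Hedgehog moves, had log2 changes of 0.00 and -0.12.

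Genes that act between SMO and the GLI proteins went both ways, with 3 of 10 higher and 4 lower, beside 24.1% higher and 17.2% lower over all probes. Of the 3 higher, Prkar1a and Cul3 lost their calls under both alternative normalizations, and Btrc, among the 4 lower, lost its call in 8 of 15 alternatives. These 3 genes were chosen after their values were seen. The largest changes were falls. Csnk1d, a casein kinase gene, gave 1.15, 0.321 and 0.597 in KO and 1.43, 1.54 and 1.43 in WT, with KO array 1 closest to the WT arrays, and its log2 change was -1.28, or -1.74 without that array. The Csnk1d call ended without a trend in the variance prior. Numb, whose product promotes GLI1 breakdown, fell by 0.72 and Arrb2, a beta-arrestin that helps SMO reach the cilium, by 0.58 on the log2 scale (limma, adjusted p = 0.000873 and 0.0163), and the Arrb2 call ended without WT array 1 or 2. Of 18 tested genes of the primary cilium, 5 rose and 6 fell, or 5 and 8 without KO array 1, beside the same shares over all probes. Ift81, a transport protein gene chosen after its values were seen, passed as lower only without that array or with the replicate block (log2 change -0.52, or -0.94 without KO array 1). Kif3a, a motor subunit needed to build the cilium, gave 4.36, 4.86 and 4.50 in KO and 8.82, 9.08 and 8.87 in WT. It was 1.95-fold lower in KO (limma, adjusted p = 2.64e-06), and the groups lay far apart. Ift88, a transport protein of the same organelle, fell by 0.51 and Evc, which passes the signal on at the base of the cilium, rose by 0.52 on the log2 scale (adjusted p = 0.00426 and 0.000507).

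Of 44 genes listed as known Hedgehog targets in mesenchyme, growth control or the neural tube, 39 were on the array and 27 were tested. Of these 14 rose, 5 fell and 8 did not pass, which is 70.4%, beside 41.3% of all probes, with a median log2 change of 0.27 beside 0.09. Among probes above the median probe, 15 of 19 targets passed, beside 5536 of 10035 probes. The list was chosen with earlier results of these data known, so its share is not an independent measure. It also holds genes that high Hedgehog levels repress, Dbx1 among them, so a rise has no single meaning for the response. Quantile normalization gave 10 higher and 6 lower and cyclic loess 10 and 7, and the counts were 12 and 6 without KO array 1 and 9 and 3 without KO array 3. For 3 of the 14, Pax9, Dbx1 and Nkx2-2, all WT values lay below the limit, so these probes came to be tested only through their KO values and had to differ. Of the other 24 tested targets 11 rose and 5 fell, with a median log2 change of 0.18. In mesenchyme 7 of 13 rose and 3 fell, beside 24.1% higher and 17.2% lower over all probes. Barx1, a homeobox gene of stomach mesenchyme, gave 24.2, 21.4 and 24.7 in KO and 3.95, 4.12 and 4.41 in WT and was 5.62-fold higher in KO (limma, adjusted p = 2.73e-09). Pax9, a gene of the sclerotome and pharynx, gave 0.582, 0.646 and 0.430 in KO against 0.106, 0.143 and 0.191 in WT. The fold is a bound, at least 2.51-fold higher in KO. Foxd1, a gene of the renal stroma, gave 15.2, 4.97 and 4.62 in KO and 13.7, 16.5 and 16.9 in WT. KO array 1 lay within the WT range and the other KO arrays far below it, with a log2 change of -1.15 with that array and -1.71 without it. The call for Foxd1 ended without either of the other KO arrays, without WT array 2 or 3, and with no trend in the variance prior. Foxf1 and Hand2, mesenchymal targets in the gut wall chosen here after their values were seen, were too dim to be tested.

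In growth control 5 of 10 target genes rose and 2 fell, or 4 and 3 without KO array 1. Over all tested probes 24.1% were higher and 17.2% lower. Of the 5 that rose, Jag2 kept its call in 6 of 15 alternatives, Ccnd2 in 8, Igf2 in 12, Sfrp1 in 13 and Ccne1 in 14. Ccnd1, which encodes cyclin D1, gave 0.896, 0.562 and 0.669 in KO and 1.25, 1.12 and 1.26 in WT, a fall of 1.74-fold with no overlap (limma, adjusted p = 0.00270). Snai2, a gene of migratory mesenchyme, gave 14.4, 6.74 and 7.38 in KO and 14.6, 15.4 and 15.2 in WT. Its KO array 1 was again near the WT arrays, and the log2 change was -0.75 with that array and -1.09 without it. The Snai2 call ended without KO array 2 or 3, without WT array 3 and without that trend. Sfrp1, a secreted WNT antagonist gene, had a log2 change of 0.42, and its call ended under both alternative normalizations. In the neural tube group 9 genes were on the array and 4 were tested. Of these, Dbx1 and Nkx2-2 were tested only through their KO values, and the other two did not pass. Nkx2-2, a gene of ventral progenitors that depends on Hedgehog, gave 0.672, 0.306 and 0.818 in KO and 0.0817, 0.100 and 0.04999 in WT, at least 2.54-fold higher in KO. It lay close to the limit, was tested in 9 of 15 alternatives and was not tested without KO array 1. Dbx1, of more dorsal progenitors, which high Hedgehog levels repress, gave 1.54, 1.43 and 1.24 in KO and 0.215, 0.0146 and 0.0652 in WT, at least 6.44-fold higher in KO.

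**Figure D3:**
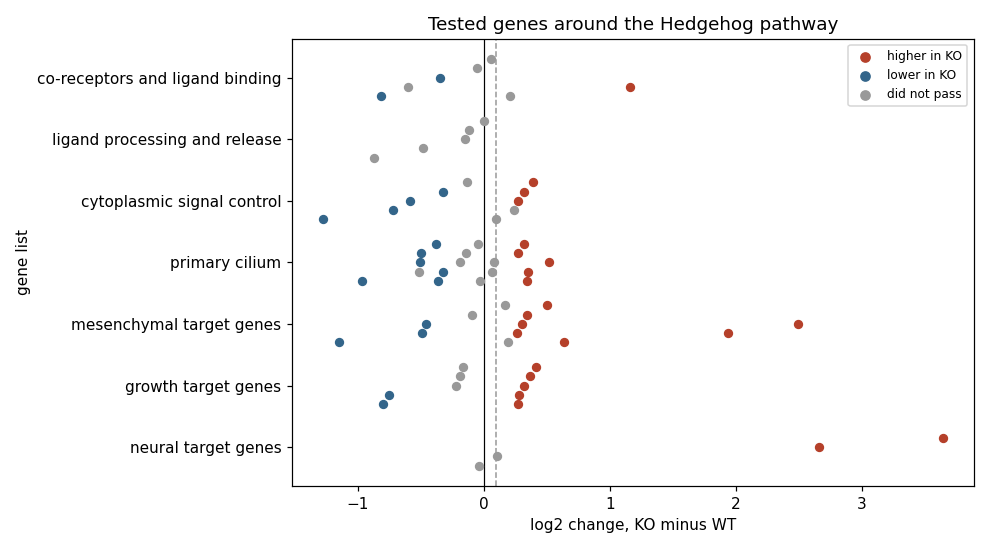
Log2 change (KO minus WT) of every tested gene on 7 lists around the Hedgehog pathway, 1 point per gene. Red is higher and blue lower in KO at an adjusted p under 0.05, grey did not pass, and the dashed line is the median of all tested probes at 0.09. The pathway lists spread to both sides. Dbx1 and Nkx2-2 on the neural list and Pax9 on the mesenchymal list were tested only through their KO values and had to lie to the right. Apart from them, the point furthest to the right is Barx1 on the mesenchymal list, at 2.49.

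Markers of tissues within or near the ridge also differed between the genotypes. Their counts stand beside shares of 24.1% higher and 17.2% lower over all tested probes. In bulk tissue, fewer cells of a type and less RNA per cell cannot be told apart. Of the sclerotome and somite list, which shares Pax1, Pax9 and Nkx3-2 with the mesenchymal targets, 5 of 8 tested genes rose and none fell, Pax9 being tested only through its KO values, and its summed intensity was 23.7 to 26.8 on the KO arrays and 16.3 to 16.4 on the WT arrays. Its largest changes were in Meox2 and Tcf15, transcription factor genes of the somite, with 1.73 ± 0.167 for Meox2 in KO and 0.436 ± 0.0720 in WT, and 12.8 ± 0.805 for Tcf15 in KO and 6.26 ± 0.140 in WT (SD, n = 3 each). Of the 5 that rose, Pax1 kept its call in 8 of 15 alternatives and Nkx3-2 in 9 of 14. Meox2 and Tcf15 kept theirs in every alternative that tested them, as did Pax9, which had to differ. Without Pax9, 4 of the other 7 tested genes rose and none fell. The floor plate and notochord list had 2 tested genes, Slit2 and Spon1, and neither passed in limma, 1 of them with an unadjusted p under 0.05 (log2 changes 0.17 and 0.29). Slit2 passed as higher without KO array 1 (adjusted p = 0.00884, over the alternatives 0.00884 to 0.805). Spon1 passed as higher with the replicate block and without KO array 3 (limma, adjusted p over the alternatives 0.00222 to 0.354). Foxa2, which defines the floor plate and also marks endoderm, was not tested. Chosen after its values were seen, it gave 0.307, 0.369 and 0.274 in KO and 0.156, 0.0831 and 0.116 in WT, with no overlap and only the KO values above the limit. The summed intensity of the list was 32.01 to 36.8 in KO and 27.8 to 30.1 in WT. The gut endoderm list had 1 of 8 higher and 3 lower, with sums of 21.5 to 22.6 in KO and 25.1 to 26.4 in WT. The limb bud list had 2 of 5 higher and none lower, with sums of 7.82 to 8.93 in KO and 6.30 to 6.71 in WT, and the nephric duct list 3 of 7 higher and 1 lower, with 52.2 to 57.7 in KO and 45.6 to 47.8 in WT. The sums of the Schwann cell precursor and neural crest list were 20.2 to 21.3 in KO and 11.3 to 12.3 in WT, and those of the endothelial list 78.5 to 79.7 in KO and 79.8 to 81.6 in WT. Such sums follow their brightest probes. Sox10, with 13.5 ± 0.506 in KO and 5.84 ± 0.363 in WT (SD, n = 3 each), made up most of the neural crest gap. Kdr, the brightest endothelial gene, with 37.7 ± 1.29 in KO and 31.7 ± 1.16 in WT, rose while 4 other members of its list fell. On these 7 lists a value at or below 0 occurred for Foxa3 only, on 1 WT array. The part of these tissues in the values of the Hedgehog genes and their targets was not tested.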

How the data were processed

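Biotin-labelled total RNA of urogenital ridges was measured on single-colour CodeLink arrays, per the labels. The authors deposited 1 linear intensity per spot and array. How the authors corrected background and scaled the arrays is not given in the sources used here. No further normalization was applied. Before taking log2, a floor of 0.0811, the 5th percentile of the positive intensities, replaced all lower values. Probes with values on at least 2 arrays of each genotype and a mean log2 value above the 25th percentile (an intensity of 0.217) were tested with limma 3.58.1 in R 4.3.3 (genotype as the only term, eBayes with an intensity trend, two-sided, Benjamini-Hochberg over 15062 probes). The fit was tested on simulated data. Where the lower genotype's mean lay below the limit, the fold is a bound set against that limit. The precision is limited by the 3 arrays per genotype.

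GEO's platform annotation named the probes, with 1 symbol for 15120 probes, several for 38 and none for 5131. Coordinates of probes are not given, since their build is not stated. Promoter windows are those of RefSeq on GRCm38.p6, with 8 of the 10 members matched. List genes were read on their brightest probe with values on all arrays. The members and lists were chosen with earlier results of these data known. The genes named by rule are all members, genes drawn from the up to 3 of each list with the largest change among those that passed (or the 2 brightest where fewer than 2 passed), and the 3 probes nearest in pattern to Ptch1, Gli1 and Hhip. Other genes are named where they check the tissue, are shared by lists, are listed at 0 or change how a count reads, and were chosen after their values were seen. Alternatives were 2 normalizations, 2 other filters, 3 other treatments of low values, no variance trend, the replicate number as a block, and leaving out each array.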

Additional observations from a re-analysis of the deposited data

How the results depend on the processing

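The number of Hedgehog genes that passed, 2 in the reported fit, was 1 without the filter on dim probes (Gli2) and 1 among probes above the median probe (Smo, since only Smo and Gli1 were tested there). Leaving out 1 array gave 0 to 2 Hedgehog genes, and 0 whichever WT array was left out. Of the target genes 12 to 18 passed when 1 array was left out, against 19 in the reported fit, with 12 without KO array 3. Under quantile and cyclic loess normalization and without the variance trend the number was again 2, but Gli2 and Dhh in place of Gli2 and Smo. Gli3 did not pass in any setting, and its log2 change turned to -0.062 under quantile normalization and -0.049 under cyclic loess normalization. Leaving out 1 array took it from -0.16 (without KO array 3) to 0.49 (without KO array 2), and it was also below 0 without WT array 1, at -0.13. The cause was not tested. Ptch1, Gli1 and Hhip kept their direction and did not pass in any alternative that tested them. Their log2 changes ran from 0.10 to 0.51, 0.06 to 0.23 and 0.11 to 0.66. Shh, Ihh and Sufu were tested only without the filter, at adjusted p of 0.656, 0.741 and 0.994. Over all probes 4790 to 7317 passed when 1 array was left out, against 6221 in the reported fit. With the replicate number as a block 2 Hedgehog genes, 23 other pathway genes, 18 targets and 6019 probes passed. Arrays that share a number showed no common deviation across probes (r of -0.021 to 0.00049 over the 3 pairs, and 0 of 6 arrays correlated best with their own number). The numbers were therefore not taken as pairs in the reported fit. A pairing that acts on only part of the probes was not tested. Signals near the limit, as for Shh, Ihh, Sufu, Gli3 and Hhip, bound what the members can show.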

Other observations

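Foxd1, a gene of the renal stroma, was among 11 of 15019 probes at which KO array 1 lay within the WT range while KO arrays 2 and 3 were both at least 2-fold outside it on the same side. The same pattern occurred at 0 probes with KO array 2 as the exception and at 4 with KO array 3, and at 2, 3 and 0 probes with WT arrays 1, 2 and 3 as the exception. Of the 11 probes 8 have a gene name. These 8 genes were chosen after their values were seen, and all were lower on KO arrays 2 and 3. Ergic1, which encodes a protein that cycles between the endoplasmic reticulum and the Golgi apparatus, gave 14.3, 4.95 and 4.17 in KO and 15.6, 14.0 and 14.2 in WT. Naa50, an N-terminal acetyltransferase gene, gave 4.13, 1.62 and 1.67 in KO and 4.34, 3.92 and 3.89 in WT. Mbd4, which encodes a DNA glycosylase, gave 0.463, 0.170 and 0.193 in KO and 0.412, 0.455 and 0.559 in WT. The other 5 were Foxd1, Zswim8, Poglut2, Klhl24 and Sgf29.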
